A study of Mus musculus with 12 samples.

Results

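The genes described here encode 8 peptide hormones of the gut endocrine system and 2 granins that are packed with them. They are Chga, Chgb, Gcg, Cck, Sct, Gip, Sst, Tac1, Nts and Pyy, 10 of the 21853 protein-coding genes of the GENCODE M21 annotation of GRCm38. They were taken by name, and every called peak of H3K4me3, H3K4me1, H3K27me3 or H3K9me3 that touched the gene body or the 5 kb on either side of it was collected. This stretch is called the gene window below. Chromatin came from crypts and from villi of the mouse small intestine. Villi were scraped off with glass coverslips, crypts were then released with EDTA, and fly chromatin was added at 5% as a spike-in before immunoprecipitation. No genotype, strain, age, treatment or number of animals is given for either compartment in the sources used here. Each compartment and modification had 1 library, so crypts and villi are set side by side without a test, and no difference between them has a replicate check. The lists hold positions and a score but no read counts, so the depth is unknown. The score, taken as the authors' −log10 p-value, was used only to rank peaks within their own list.

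Enteroendocrine cells are scattered hormone-secreting cells of the intestinal epithelium. They arise in the crypts, like the other epithelial lineages, and move up onto the villi, where most cells are absorptive enterocytes. Their types are named after their main product, such as the L cells that release glucagon-like peptides and peptide YY, the K cells that release GIP, the I cells that release cholecystokinin and the S cells that release secretin. Chromatin of whole crypts or villi is a mixture of cells, so a mark on fewer cells and less of the mark per cell cannot be told apart, and a mark carried by endocrine cells alone may not be called. The paper also reports that H3 tails are cleaved in villi. It describes lower ChIP intensity there for the marks other than H3K27me3, which was retained at repressed promoters. The part of this cleavage in the called peaks was not tested. H3K4me3 is known for active and poised promoters, H3K4me1 for enhancers and promoter flanks, H3K27me3 for promoters repressed by Polycomb and H3K9me3 for heterochromatin.

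The promoter sequences come first, since the genes fell into groups by the marks at their start sites. Sct alone carried H3K4me3 there, Chga, Cck and Pyy carried H3K27me3 without H3K4me3, and Gcg and Gip carried none of the 4 modifications. These 6 genes are shown because their RefSeq and GENCODE starts coincide or lie at most 28 bp apart. Each sequence is the 250 bases before the RefSeq start on GRCm38.p6, written in the direction of the gene, with CpG dinucleotides in capitals. Sct lies at chr7:141279134-141279383 on the reverse strand, Chga at chr12:102554691-102554940 on the forward strand, Cck at chr9:121495695-121495944 on the reverse strand, Pyy at chr11:102107833-102108082 on the reverse strand, Gcg at chr2:62483654-62483903 on the reverse strand and Gip at chr11:96024295-96024544 on the forward strand.
Sct: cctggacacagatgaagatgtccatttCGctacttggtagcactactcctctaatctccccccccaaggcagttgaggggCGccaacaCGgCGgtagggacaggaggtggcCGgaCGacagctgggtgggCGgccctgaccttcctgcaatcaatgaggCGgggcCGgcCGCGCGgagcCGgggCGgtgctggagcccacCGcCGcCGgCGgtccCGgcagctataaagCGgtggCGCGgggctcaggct
Chga: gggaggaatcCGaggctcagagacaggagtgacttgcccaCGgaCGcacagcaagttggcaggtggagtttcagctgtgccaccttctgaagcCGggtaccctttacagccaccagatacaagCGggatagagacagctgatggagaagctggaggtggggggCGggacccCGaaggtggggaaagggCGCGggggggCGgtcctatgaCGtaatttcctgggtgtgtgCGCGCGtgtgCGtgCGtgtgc
Cck: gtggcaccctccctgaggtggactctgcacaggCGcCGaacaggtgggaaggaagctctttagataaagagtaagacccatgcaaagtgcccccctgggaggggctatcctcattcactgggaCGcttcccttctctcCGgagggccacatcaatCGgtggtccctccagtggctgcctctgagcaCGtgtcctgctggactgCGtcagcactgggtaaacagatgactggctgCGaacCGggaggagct
Pyy: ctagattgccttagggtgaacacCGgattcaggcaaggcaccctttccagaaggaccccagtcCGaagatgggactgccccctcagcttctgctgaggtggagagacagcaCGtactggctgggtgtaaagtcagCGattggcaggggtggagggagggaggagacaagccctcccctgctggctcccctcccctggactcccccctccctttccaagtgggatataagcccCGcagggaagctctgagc
Gcg: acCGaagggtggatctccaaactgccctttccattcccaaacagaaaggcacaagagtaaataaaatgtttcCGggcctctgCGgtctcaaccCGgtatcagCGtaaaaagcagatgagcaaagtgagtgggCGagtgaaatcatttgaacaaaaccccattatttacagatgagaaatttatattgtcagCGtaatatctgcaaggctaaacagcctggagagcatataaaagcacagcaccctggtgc
Gip: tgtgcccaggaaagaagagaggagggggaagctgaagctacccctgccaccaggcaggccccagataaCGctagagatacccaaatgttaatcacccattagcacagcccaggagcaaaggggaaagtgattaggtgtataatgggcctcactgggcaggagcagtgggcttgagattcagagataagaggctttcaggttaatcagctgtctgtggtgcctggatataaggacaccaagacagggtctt

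These stretches hold 22 CpG dinucleotides at Sct and 16 at Chga, but 9 at Cck, 7 at Gcg, 5 at Pyy and 1 at Gip. All 10 genes had an entry among the 16510 RefSeq promoters of protein-coding genes, taken as 1 per gene over 300 bases from 250 before to 50 after the outermost start. The CpG observed over expected ratio compares the number of CpG dinucleotides with that given by the C and G content, and its median over all promoters was 0.60. Tac1 had a ratio of 1.01, higher than 92.2% of all promoters, followed by Chgb at 0.80, Chga at 0.76, Sct at 0.72 and Sst at 0.71. Gcg had 0.42, Cck 0.38, Pyy 0.29, Nts 0.17 and Gip 0.050, the last lower than most promoters, since only 5.41% were below it. The RefSeq starts of Chgb, Tac1, Sst and Nts lie 364, 182, 114 and 68 bp from the outermost GENCODE start, so their ratios are anchored at another start than the counts of peaks. The hormone genes ranged from CpG-rich to nearly CpG-free promoters.

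Of 5 motifs searched in the 300 bases, the TATA box TATAAA was read on the forward strand alone, and CANNTG, TGACGTCA, TGACG and TAATTA on both strands. TATAAA was found in 3 of the 10 genes and in 8.61% of all promoters. Relative to the RefSeq start, it began 28 bases before it at Sct, 24 bases before it at Gcg and at position 6 at Chga, the start itself being position 1. Relative to the outermost GENCODE start, it began 28, 27 and 23 bases before it at Sct, Gcg and Chga. The E-box CANNTG, the short core bound by basic helix-loop-helix factors, was present in all 10 genes but also in 68.5% of all promoters. The full cyclic AMP response element TGACGTCA was present at Chgb and Sst, 2 of the 10 genes, against 2.41% of all promoters. Its shorter core TGACG, which the full element contains, was present in 6 of the 10 genes and in 24.4% of all promoters. TAATTA, a core of homeodomain factors, was present at Tac1 alone and in 4.62% of all promoters. It began at position 83 from the outermost GENCODE start of Tac1. All these counts are those of the RefSeq starts. A match is a description of the letters and not of a bound site.

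At start sites, the hormone genes carried H3K27me3 in 5 of 10 cases in both compartments and H3K4me3 in 1 of 10. A start site is counted here with the 1 kb on either side of it, over all protein-coding transcripts of the gene. Chga, Chgb, Cck, Tac1 and Pyy had the H3K27me3 peak in crypts and in villi, whereas over all protein-coding genes 13.1% had one in crypts and 16.1% in villi. Sct alone had an H3K4me3 peak, in both compartments, against 57.7% of all genes in crypts and 57.9% in villi. H3K4me1 was called at 4 of the 10 start sites in crypts, where the share of all genes was 57.9%, and at 5 in villi, where it was 56.1%. H3K9me3 was called at 0 of the 10 in either compartment, and its shares of all genes were 0.38% in crypts and 0.311% in villi.

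**Figure D1:**
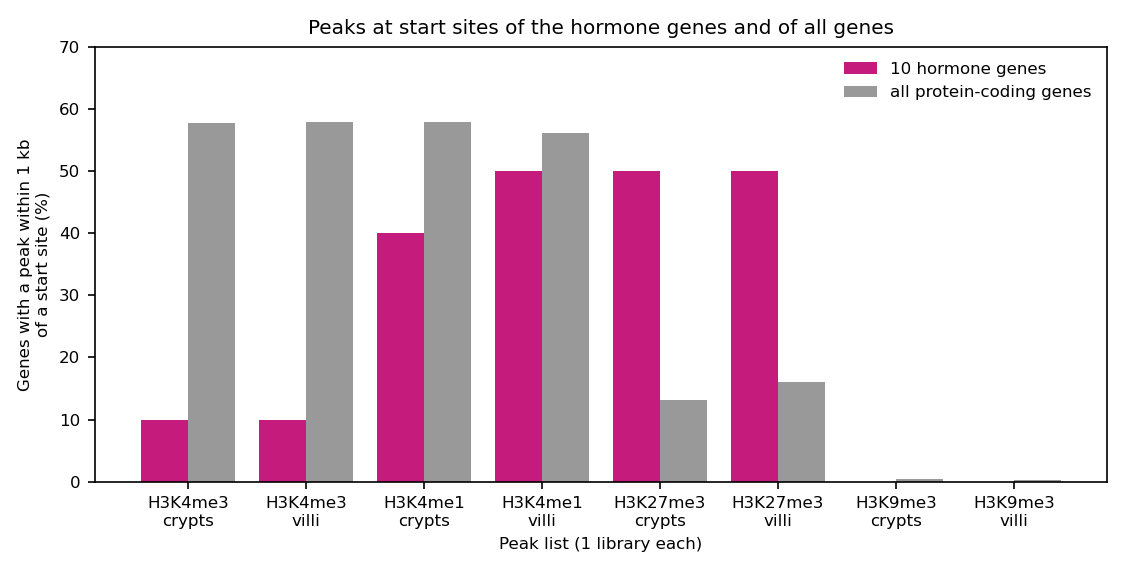
Bars give the percentage of genes with a called peak within 1 kb of a start site in each of the 8 peak lists, for the 10 hormone genes and for all 21853 protein-coding genes. H3K27me3 was at 50% of the hormone genes in both compartments against 13.1% and 16.1% of all genes, and H3K4me3 at 10% against 57.7% and 57.9%.

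The 5 genes with H3K27me3 had no H3K4me3 at any start site, so that none of the 10 was bivalent in the sense of both peaks within 1 kb of a start site. H3K27me3 without H3K4me3 was found at 6.49% of all genes in crypts and 8.21% in villi, and both together at 6.59% and 7.87%. H3K4me1 was called beside H3K27me3 at the start sites of Cck, Tac1 and Pyy in crypts, 3 of 10, and of Chga, Chgb, Cck and Pyy in villi, 4 of 10. The share of all genes with that combination was 8.28% in crypts and 10.5% in villi. The set of marks differed between crypts and villi at 3 of the 10 genes, through H3K4me1 alone in each, against 15.5% of all genes. Chga and Chgb had H3K4me1 in villi alone, and Tac1 had it in crypts alone. Gcg, Gip, Sst and Nts, 4 of 10, had none of the 4 modifications at the start in either compartment, against 30% of all genes.

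Markers of the compartments and of other cells were read from the same lists, because H3K4me1 at the start differed between compartments at Chga, Chgb and Tac1. H3K4me1 was at 4 of 4 crypts markers and 4 of 4 enterocyte markers in both compartments and at 0 of 3 immune markers in either. Of all genes, 57.9% had it in crypts and 56.1% in villi. Of 5 neuronal markers 2 had it in crypts and 3 in villi, with Ret and Uchl1 having it in villi alone and Elavl4 in crypts alone. Of 5 mesenchymal and smooth muscle markers 3 had it in crypts and 2 in villi, Myh11 having it in crypts alone. H3K4me3 was at the start sites of 4 of 4 crypts markers in crypts and 3 in villi, where Olfm4 lacked it, and of 4 of 4 enterocyte markers in both. Of all genes, 57.7% had H3K4me3 there in crypts and 57.9% in villi. The immune markers Ptprc, Cd3e and Cd8a had H3K4me3 in villi, 3 of 3, and 0 of 3 in crypts. Enteric neurons also express Tac1, Sst and Chgb. All 5 neuronal markers had H3K27me3 in crypts and 4 in villi, Elavl4 being the exception, and 2, Elavl4 and Ret, had H3K4me3 in both. H3K27me3 was also at 2 of 4 crypts markers and 3 of 5 mesenchymal and smooth muscle markers in both compartments. It was at 0 of 4 enterocyte markers in either. Of the 3 immune markers, 1 had it in villi, Cd3e, and 0 in crypts. Over all genes its share was 13.1% in crypts and 16.1% in villi. Of the mesenchymal and smooth muscle markers, Pdgfra had H3K4me3 in both compartments and Col1a1 in villi alone. The part of other cells in the peaks of the hormone genes was not tested.

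Over the whole gene window, peaks of neighbours entered as well. H3K27me3 was called in 6 of the 10 windows in both compartments, against 17.9% of all genes in crypts and 23% in villi, the additional gene being Gip. H3K4me3 was called in 3 windows in both compartments, those of Chga, Sct and Gip, against 63.2% and 63.5% of all genes. H3K4me1 was called in 6 windows in crypts and 6 in villi, against 69.1% and 68.8%. H3K9me3 was called in 0 windows, against 3.89% and 3.11% of all genes. Gcg, Sst and Nts had no peak of any of the 8 lists, a state shared by 22.5% of all genes. Longer genes have longer windows, and among the 9551 genes no longer than the longest hormone gene, Chgb, the shares fell to 14.4% and 18.6% for H3K27me3 to 48.9% and 49.1% for H3K4me3 and to 55.2% in both compartments for H3K4me1.

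**Figure D2:**
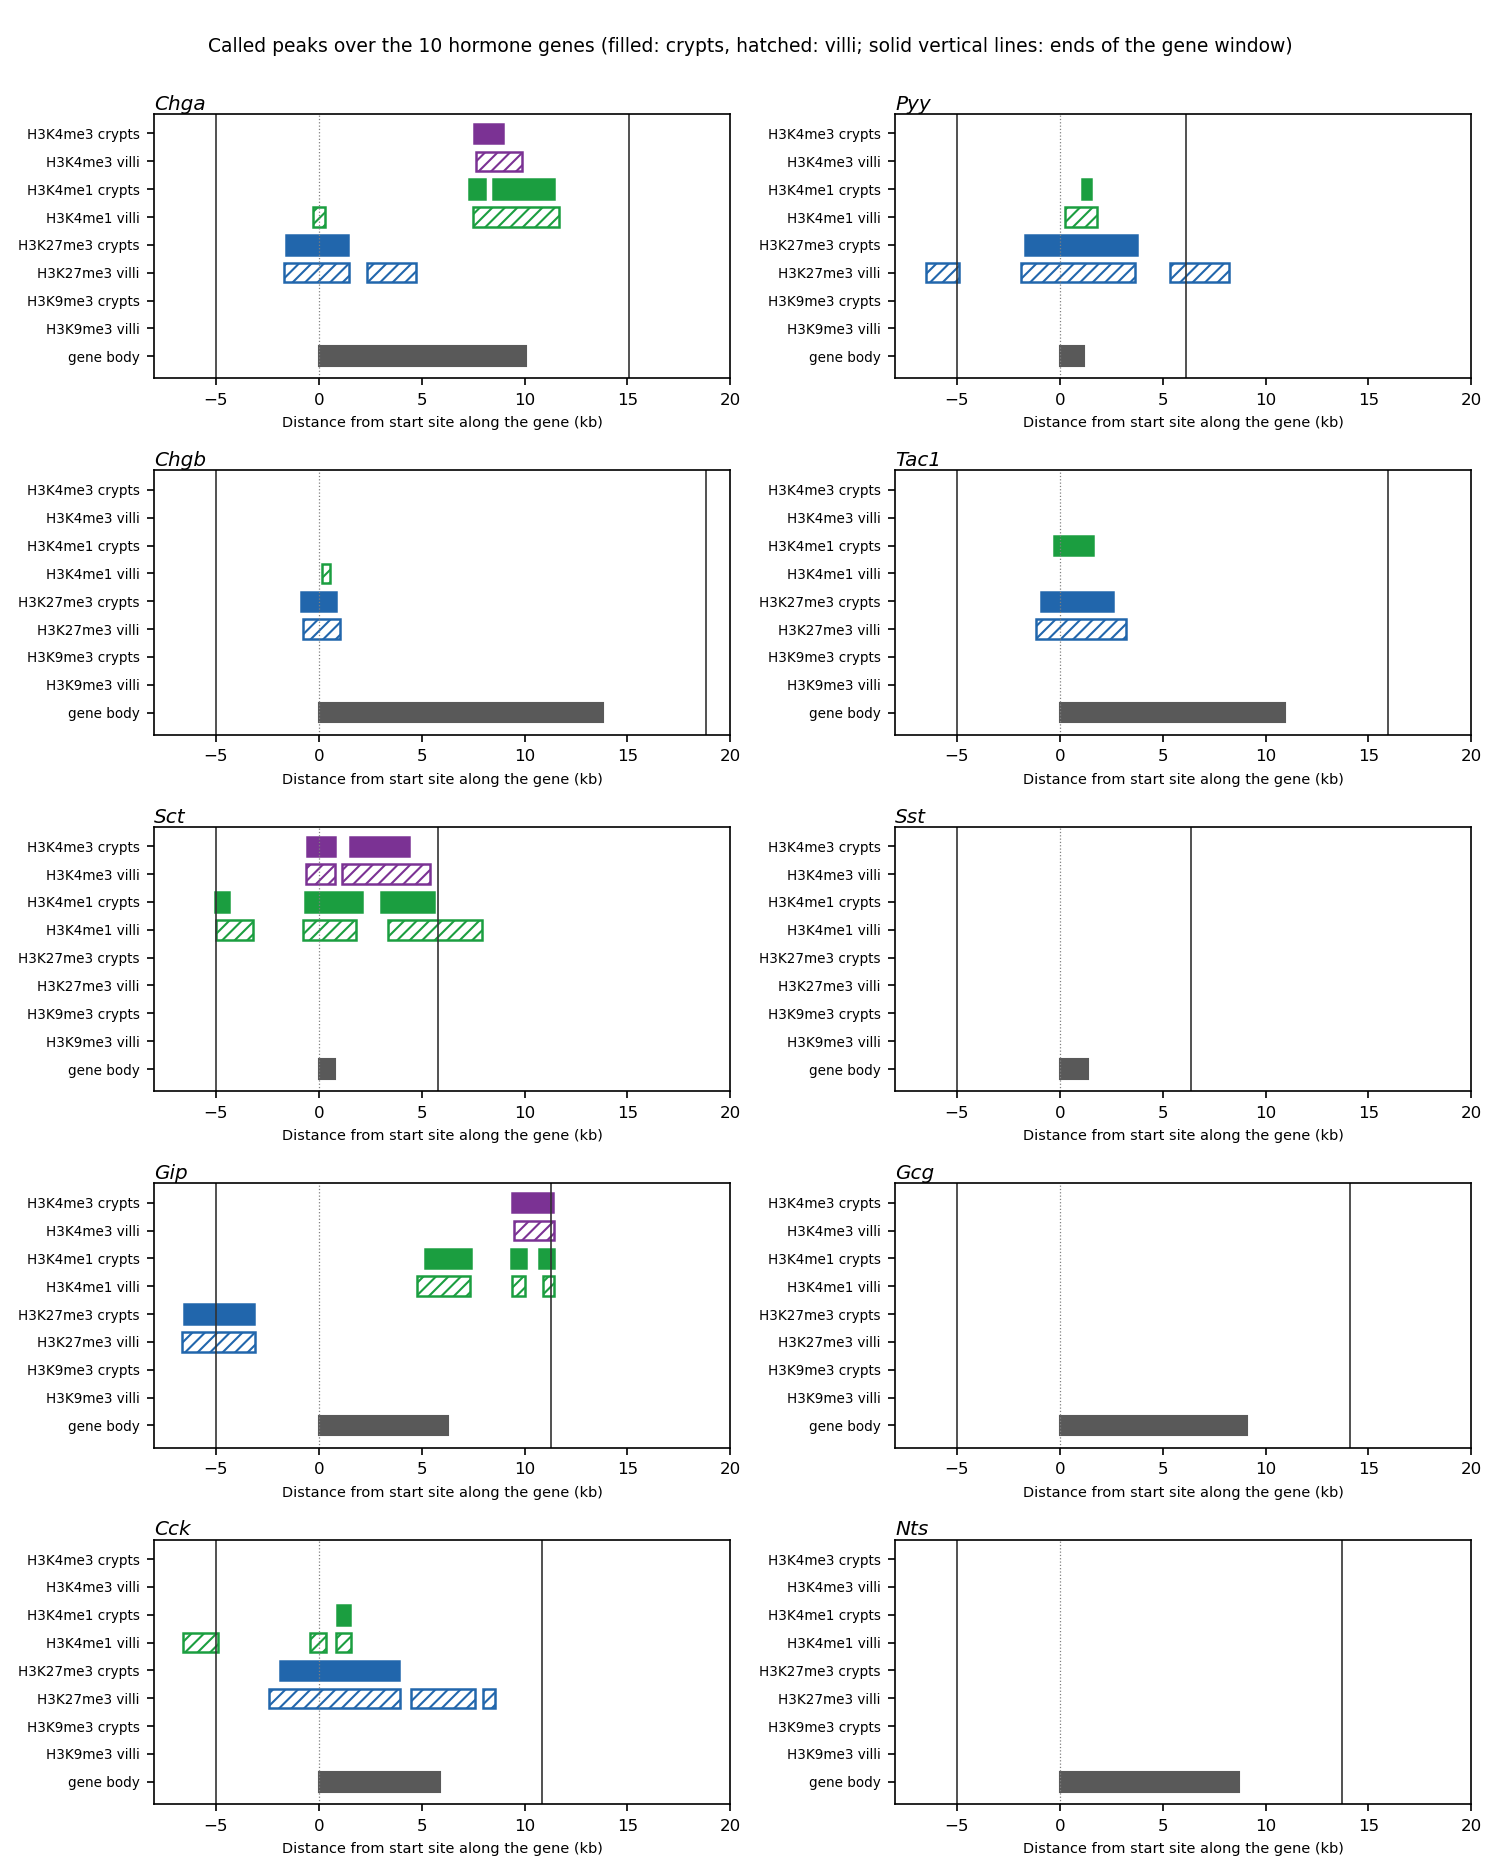
Each panel shows 1 gene, with the called peaks of the 8 lists as boxes along the distance in kb from the outermost start site in the direction of transcription (filled for crypts, hatched for villi), the gene body in grey and the ends of the gene window as solid vertical lines. Boxes of H3K27me3 cover the start of Chga, Chgb, Cck, Pyy and Tac1 in both compartments, and the panels of Sst, Gcg and Nts are empty.

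Chga encodes chromogranin A, the acidic granule protein used as a general marker of endocrine cells. It lies on chromosome 12 from 102554969 to 102565028 on the forward strand. An H3K27me3 peak covered its start, spanning 102553389 to 102556395 in crypts, a width of 3007 bp, and 102553288 to 102556416 in villi, a width of 3129 bp. Villi had a further H3K27me3 peak of 2387 bp inside the gene, from 102557292 to 102559678, with no counterpart in crypts. H3K4me3 lay toward the other end of the gene. The crypts H3K4me3 peak there spanned 102562513 to 102563903 (1391 bp), beginning 7544 bp downstream of the start. Its villi counterpart spanned 102562598 to 102564841 (2244 bp), beginning 7629 bp downstream. No start of an annotated protein-coding transcript of Chga lies there. Of the bases of this peak, 476 in crypts and 708 in villi were exonic, and the remaining ones intronic.

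H3K4me1 flanked the same place in Chga. Crypts had peaks of 775 and 2985 bp that overlapped either end of it, and villi had a single peak of 4177 bp from 102562458 to 102566634 that joined both. The H3K4me3 peak ranked 14420 of 16489 by score in crypts and 11964 of 16977 in villi, in the lower part of both lists. The H3K4me1 peak at the start of Chga in villi was 601 bp wide and ranked 54078 of 55341, among the weakest of its list.

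Chgb encodes chromogranin B, the second granin of the set, and lies on chromosome 2 from 132781278 to 132795079 on the forward strand. Its H3K27me3 peak lay over the start. The crypts peak spanned 132780426 to 132782122 (1697 bp) and the villi peak 132780510 to 132782310 (1801 bp). These were the narrowest H3K27me3 peaks over a start among the 5 genes. An H3K4me1 peak of 436 bp was called within it in villi, from 132781414 to 132781849, ranked 39636 of 55341. There was no H3K4me1 peak in the Chgb window in crypts and no H3K4me3 peak in either compartment.

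Sct, the gene of secretin, which stimulates bicarbonate secretion by the pancreas, was the exception among the hormone genes. It spans 804 bp of chromosome 7 from 141278330 to 141279133 on the reverse strand. H3K4me3 covered 96.1% of the gene in crypts, where the peak spanned 141278361 to 141279708 (1348 bp), and 96.8% in villi, where it spanned 141278356 to 141279769 (1414 bp). H3K4me1 covered all of it, by a crypts peak of 2809 bp and a villi peak of 2550 bp. No H3K27me3 peak lay in the window. The same set of marks at the start site, H3K4me3 and H3K4me1 in both compartments, was found at 40% of all genes.

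The neighbour of Sct is Cdhr5, a protocadherin of the brush border, whose start at 141276786 lies 1544 bp from the 3′ end of Sct. Its own H3K4me3 peak entered the window and was wider and ranked higher than that of Sct, with 2859 bp and rank 4253 of 16489 in crypts and 4252 bp and rank 1077 of 16977 in villi. The Sct peaks ranked 11148 and 9919. The H3K4me1 peaks over Sct also came within 1 kb of the Cdhr5 start, so that H3K4me1 of the 2 genes cannot be told apart there. The H3K4me3 peaks were called apart but less than 1 kb from each other. That of Cdhr5 ended at 141277603 in crypts and 141277982 in villi, and that of Sct began at 141278361 and 141278356. How far the neighbour contributes to the Sct peak was not tested. An upstream H3K4me1 peak, 4348 bp before the start of Sct in crypts and 3206 bp in villi, had a width of 690 bp in the former and 1788 bp in the latter.

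Cck encodes cholecystokinin, which contracts the gallbladder and stimulates release of pancreatic enzymes. It lies on chromosome 9 from 121489824 to 121495694 on the reverse strand. It had the widest and highest-ranked H3K27me3 peak of the set in crypts, from 121491779 to 121497564 (5786 bp), at rank 221 of 7611. In villi the peak at this place ran from 121491734 to 121498092 (6359 bp), at rank 435 of 13797. Villi had 2 further H3K27me3 peaks, one of 3107 bp over the 3′ end of the gene and one of 591 bp beyond it. H3K27me3 covered 66.7% of the gene in crypts and 91.3% in villi, where the 3107 bp peak held 1397 of the covered bases. H3K4me1 lay within the H3K27me3 domain, with 1 peak of 588 bp in crypts and 2 peaks of 743 and 812 bp in villi. The crypts peak began 912 bp downstream of the outermost start, and the 812 bp villi peak covered that start. A further villi H3K4me1 peak reached 88 bases into the window from upstream.

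Pyy encodes peptide YY, a satiety peptide of L cells, and lies on chromosome 11 from 102106676 to 102107832 on the reverse strand. H3K27me3 covered the whole gene in both compartments. The crypts peak spanned 102104067 to 102109520 (5454 bp) and the villi peak 102104184 to 102109695 (5512 bp). The widths were nearly equal. The peak ranked 1647 of 7611 within the crypts list and 180 of 13797 within the villi list, and ranks in lists of such unequal length, from 1 library each, do not measure a change of the mark. Villi had further H3K27me3 peaks at both edges of the window. The one downstream, from 102099625 to 102102494, came within 1 kb of the start of Ppy, the gene of pancreatic polypeptide, which is named here because of this peak. H3K4me1 lay within the Pyy domain. The crypts peak was 445 bp wide at rank 54158 of 54642, lay over the 3′ end of the gene and began 1078 bp from the outermost start, so that it counts through another start site of Pyy. The villi peak was 1566 bp wide at rank 22634 of 55341.

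Tac1 encodes the tachykinins substance P and neurokinin A, made by serotonin-producing endocrine cells and by enteric neurons. It lies on chromosome 6 from 7554879 to 7565834 on the forward strand. H3K27me3 covered its start, with a crypts peak spanning 7553968 to 7557448 (3481 bp) and a villi peak spanning 7553721 to 7558112 (4392 bp). It ranked 1237 of 7611 within the crypts list and 4281 of 13797 within the villi list. In crypts an H3K4me1 peak of 1891 bp, from 7554611 to 7556501, lay entirely within the H3K27me3 peak. It ranked 36398 of 54642, in the lower part of its list, and villi had no H3K4me1 peak in the window. This combination over the 8 lists of the window was shared by 35 genes, 0.16% of all.

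Gip encodes the glucose-dependent insulinotropic polypeptide of K cells and lies on chromosome 11 from 96024545 to 96030831 on the forward strand. No peak of the 4 modifications was called within 1 kb of its start sites in either compartment. H3K27me3 lay upstream. The crypts peak spanned 96017983 to 96021390 and ended 3155 bp before the start, and the villi peak spanned 96017880 to 96021454 and ended 3091 bp before it. This peak ranked 6286 of 7611 in crypts and 2550 of 13797 in villi, and it overlapped no protein-coding gene. At the 3′ end of Gip an H3K4me1 peak ran beyond the gene, 2247 bp wide in the crypts list and 2575 bp wide in the villi list. It ranked 3565 of 54642 in crypts and 10821 of 55341 in villi, which is in the upper part of both lists. The H3K4me3 peak and the other H3K4me1 peaks of the window belonged to the start of Snf8, a subunit of the endosomal sorting machinery, at 96034885.

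Gcg, Sst and Nts had none of the 4 modifications in their windows. Gcg encodes proglucagon, the precursor of the glucagon-like peptides, and lies on chromosome 2 from 62474530 to 62483650 on the reverse strand. Its nearest H3K4me1 peak lay 30118 bp from the start in crypts and 29925 bp in villi, inside Fap, and its nearest H3K4me3 peak 71184 and 71065 bp away, at the start of Dpp4, the peptidase that inactivates incretins. The nearest H3K27me3 peak was 435 kb away in crypts and 651 kb in villi. Sst encodes somatostatin, the inhibitory peptide of D cells, on chromosome 16 from 23889573 to 23890958, and its nearest peaks were of H3K4me1 inside Bcl6, 79202 bp away in crypts and 79369 bp in villi. Nts encodes neurotensin, on chromosome 10 from 102481756 to 102490486, and its nearest H3K4me1 peak lay 105360 bp away in crypts and 106628 bp in villi, inside Mgat4c. The nearest H3K27me3 peak was 664 kb from Sst and 535 kb from Nts in both compartments. Fap, Dpp4, Bcl6 and Mgat4c are named because these peaks lie in or at them.

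**Figure D3:**
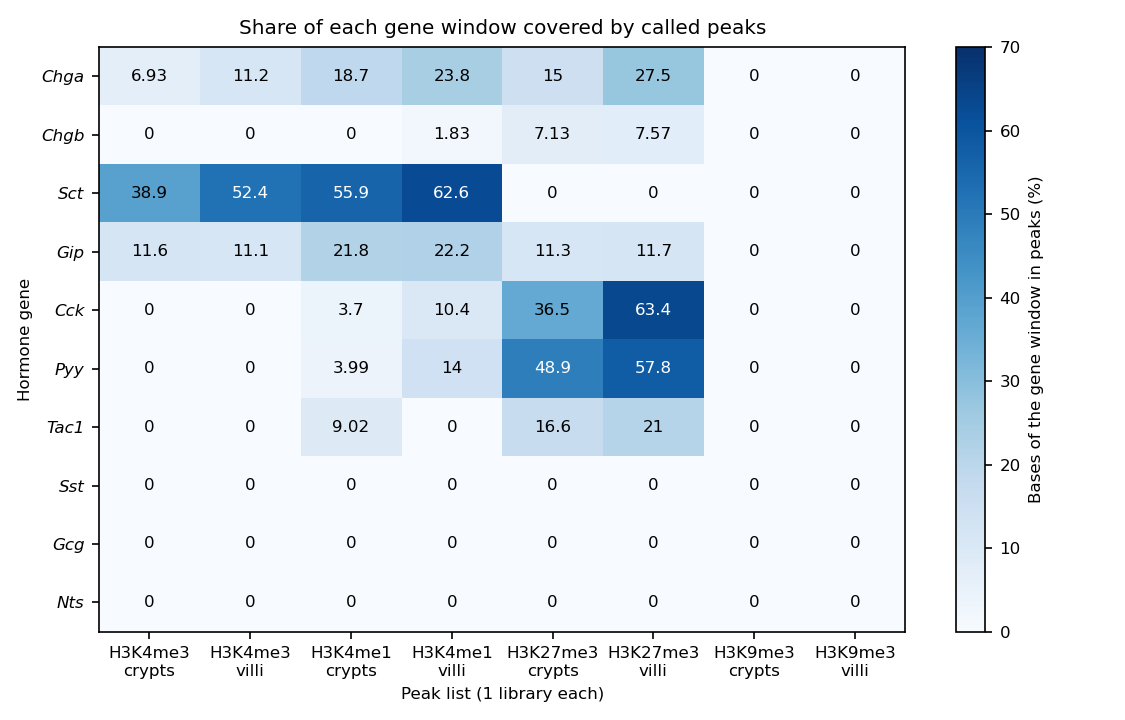
Each cell gives the percentage of the bases of a gene window that lie in called peaks of 1 list, with genes in rows and the 8 lists in columns. H3K27me3 covered 63.4% of the Cck window and 57.8% of the Pyy window in villi, H3K4me1 covered 62.6% of the Sct window in villi, and 3 genes were at 0 in all lists.

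H3K27me3 had 6 peaks over the windows in crypts and 11 in villi, which covered 21271 and 30120 bases. Each of the 6 crypts peaks met 1 villi peak, and the 5 additional villi peaks had no counterpart in crypts. In the whole villi list 55.6% of the peaks had none, that list being the longer one, with 13797 peaks over 35.6 Mb against 7611 over 20.3 Mb. The median H3K27me3 peak of the windows was 3444.5 bp wide in crypts, where the list's median was 1793 bp, and 3107 bp wide in villi, where it was 1610 bp. The list medians also take in peaks outside gene windows, and a wider peak reaches a window more easily. The widths are therefore not compared like with like. The additional peaks lay at Cck, Chga and Pyy, beside a peak found in both compartments. The 6 paired peaks were all wider in villi, with log2 ratios from 0.015 at Pyy to 0.34 at Tac1 and a median of 0.08. Of the 4736 such pairs of the genome 79.2% were wider in villi, with a median of 0.32 and quartiles of 0.03 and 0.77. The peaks of the hormone genes therefore lay on the side that most pairs did, and 5 of the 6 ratios were below the median of all pairs.

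For H3K4me3, 4 pairs were found in the windows, with log2 width ratios of -0.02 at the Snf8 start near Gip, 0.07 at Sct, 0.57 at the Cdhr5 start near Sct and 0.69 inside Chga. Over the 14941 pairs of the genome the median was -0.03 with quartiles of -0.17 and 0.11. For H3K4me1, 8 pairs ranged from -0.41 near Snf8 to 1.82 at Pyy, and 5 of them were wider in villi, against 49.2% of all 38608 pairs. The pairs at -0.41 and -0.15 lay at the Snf8 start. Those at 0.82 and -0.14 came within 1 kb of the Cdhr5 start, the latter also covering Sct. The Pyy peak was the one with the largest ratio, and its crypts partner was close to the threshold of the list.

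**Figure D4:**
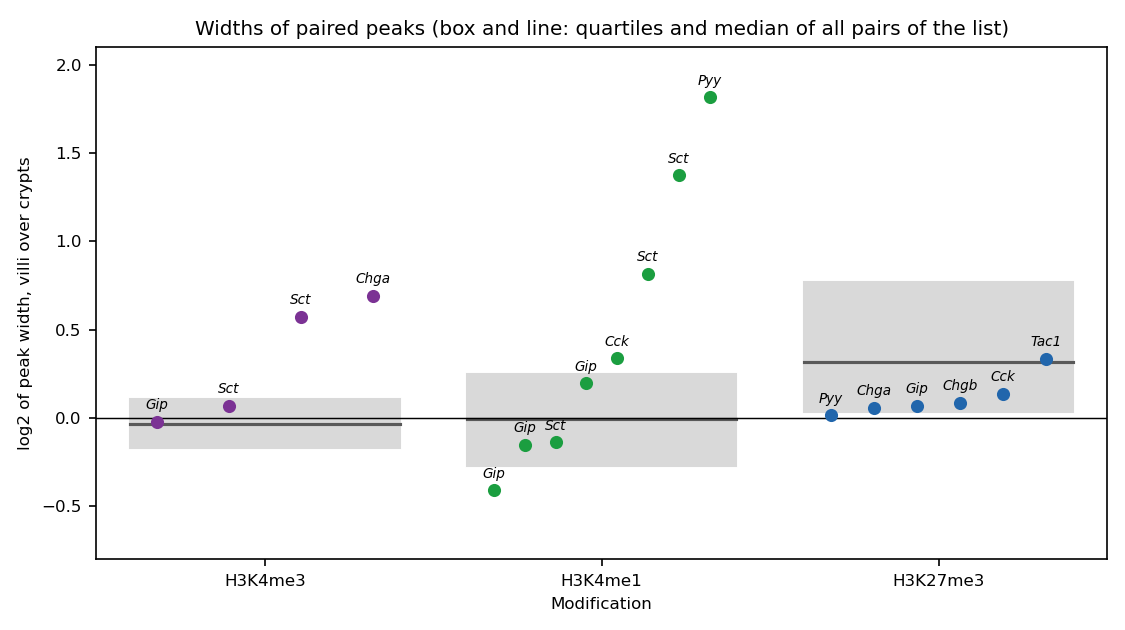
Points give the log2 ratio of peak widths, villi over crypts, where 1 crypts peak met 1 villi peak in a hormone gene window, by modification and named by the gene of the window. Grey boxes and lines are the quartiles and median of all pairs, and the 6 H3K27me3 points lie between 0.015 and 0.34, 5 of them below the median of 0.32 over all pairs.

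The marks at the start sites were next set against the CpG content of the promoters, which the choice of genes did not use. Over all promoters in crypts, the median CpG ratio was 0.78 with H3K4me3 alone (n = 8842), 0.74 with both marks (n = 1092), 0.59 with H3K27me3 alone (n = 1014) and 0.18 with neither (n = 5562). Sct, at 0.72, lay within the quartiles of its class, 0.60 and 0.92. Among the 5 genes with H3K27me3 alone, Tac1 and, narrowly, Chgb were above the upper quartile of 0.793, Chga was below it, and Cck, narrowly, and Pyy were under the lower quartile of 0.382. In villi, where these 5 genes were in the same class, its quartiles were 0.324 and 0.754 (n = 1282), so that Chga was above the upper one as well, Cck lay between them and Pyy stayed under the lower one. Of the 4 genes with neither mark, Gip and Nts were below the median of that class, and Gcg at 0.42 and Sst at 0.71 were above its upper quartile of 0.31. Sst, with no peak of any of the 8 lists, had a CpG ratio higher than 59.8% of all promoters, read over a stretch whose start lies 114 bp from the GENCODE start used for the peaks.

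**Figure D5:**
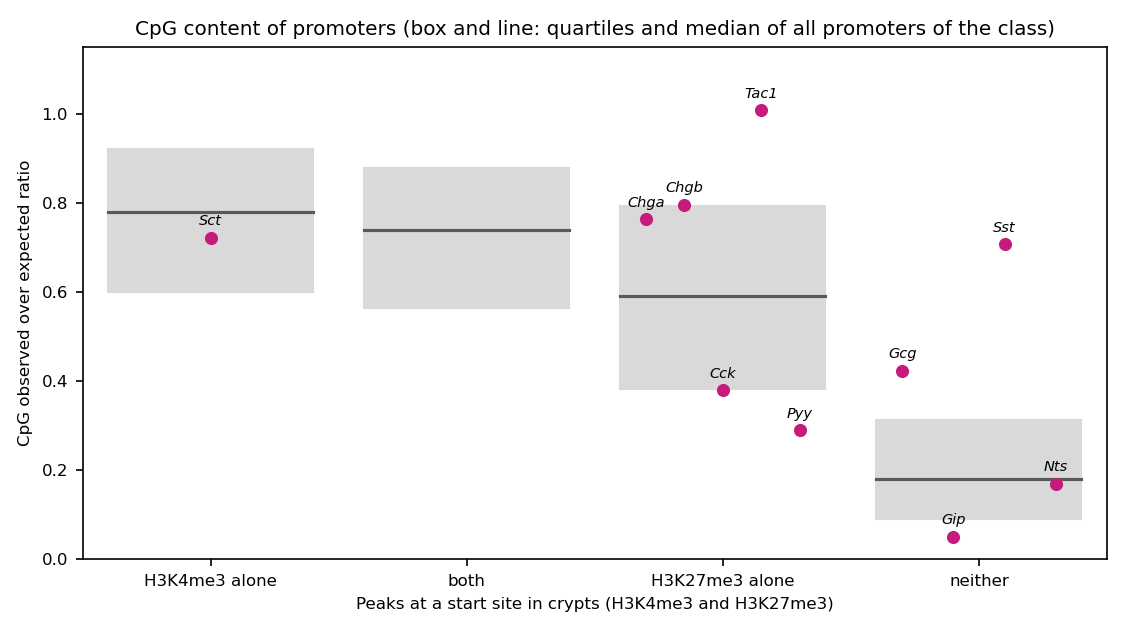
Points give the CpG observed over expected ratio of the 10 promoters, by the presence of H3K4me3 and H3K27me3 peaks at the start site in crypts, and grey boxes and lines give the quartiles and median of all promoters in each class. Tac1 at 1.01 and Sst at 0.71 lie above the boxes of their classes, and Gip at 0.050 lies below its own.

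Other genes of the enteroendocrine system were counted at their start sites in the same way, from lists of hormones, granule proteins, nutrient sensors and hormone receptors. Of 7 other hormones and amines, 0 had H3K4me3 in either compartment, 2 had H3K27me3 in both, Tph1 and Cartpt, and 2 had H3K4me1 in both, Ghrl and Ucn3. The shares of all genes were 13.1% and 16.1% for H3K27me3 and 57.9% and 56.1% for H3K4me1. Tph1 is the rate-limiting enzyme of serotonin synthesis in the gut, and Ghrl encodes ghrelin. The remaining 3, Insl5, Iapp and Gast, had no mark, as had 30% of all genes, and the set of marks differed between crypts and villi at 0 of the 7, beside 15.5% of all genes. This list, like the 10 genes, lacked H3K4me3 at most start sites, which 57.7% of all genes had in crypts.

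Of the 15 genes of granules and prohormone processing, H3K4me3 was called at 5 in crypts and 6 in villi, where the shares of all genes were 57.7% and 57.9%. H3K27me3 was called at 8 and 10, beside 13.1% and 16.1% of all genes. H3K27me3 without H3K4me3 was found at 6 in either compartment, beside 6.49% and 8.21% of all genes. The set differed between compartments at 4 of the 15, beside 15.5% of all genes. Pcsk1, a prohormone convertase, had H3K4me3 in both and H3K4me1 in villi alone. Cpe, the carboxypeptidase that trims prohormones, had H3K4me1 and H3K27me3 in both and H3K4me3 in villi alone. Pam, which amidates peptide hormones, and Snap25, a fusion protein of secretory vesicles, had H3K27me3 in villi alone. Of the genes with the same set, Scg2 and Scg3 had no mark, Scg5 had H3K4me1, and Pcsk2 had H3K27me3.

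Of the 8 nutrient sensors, 5 had no mark in either compartment, among them Ffar1, Ffar3 and Gpr119, beside 30% of all genes. H3K27me3 was called at 1 of the 8 in crypts and 2 in villi, near the 13.1% and 16.1% of all genes, with Casr, the calcium-sensing receptor, having it in both. Ffar4, a receptor of long-chain fatty acids, had H3K4me3 and H3K4me1 in both. Ffar2, a receptor of short-chain fatty acids, had H3K4me1 in both and H3K27me3 in villi alone. Of the 21 receptors of the hormones, H3K27me3 was called at 12 in crypts and 13 in villi, where 13.1% and 16.1% of all genes had it. H3K4me3 was called at 4 and 3, against 57.7% and 57.9% of all genes. H3K27me3 without H3K4me3 was at 9 of the 21 in crypts and 11 in villi, beside 6.49% and 8.21% of all genes. No mark was called at 7 receptors, a share near the 30% of all genes. The set differed at 3 of the 21, near the 15.5% of all genes. These were Glp1r, which had H3K4me1 in villi alone, Sstr1, which had H3K4me3 in crypts alone, and Sstr3, which had H3K27me3 in villi alone. Gcgr had H3K4me1 and H3K27me3 in both and Cckbr H3K27me3 in both, whereas Glp2r and Cckar had no mark.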

How the data were processed

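ChIP-seq of 12 libraries, crypts and villi with 5 modifications and an input each, was the source, and lists of 8 libraries are described. The authors mapped reads with Bowtie 1.1.2 to the mouse assembly mm10 and the fly assembly dm6, took out PCR duplicates with samblaster and called peaks with MACS2 2.1.1 at a p-value threshold. The deposited score, 10 or more in each list, was read as −log10 of a p-value, since its lowest values lie at the stated threshold. The spike-in factor enters neither score nor position.

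Gene windows were gene bodies plus 5 kb on either side, start sites those of protein-coding transcripts plus 1 kb on either side (GENCODE M21, GRCm38, the assembly mm10 names), and overlap meant at least 1 bp. Python 3.11.15, NumPy 2.4.6, pandas 2.3.3, SciPy 1.17.1 and Matplotlib 3.10.9 were used, and the overlap code was tested on simulated data. Promoter sequences came from RefSeq (GRCm38.p6). With 1 library each, compartments were not tested against each other. Members, lists and alternatives were chosen with earlier results of these data known. The text names all 10 members, genes that start in their windows and, in list order, other genes whose marks differ between compartments with up to 4 further examples per list; genes at a nearest peak, Ppy, Cartpt, Iapp, Gast and Casr were added after their values were seen. The H3K9me2 lists, of 6 and 3 regions, had none in the 10 windows. The input libraries were not analysed here.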

Additional observations from a re-analysis of the deposited data

How the results depend on the processing

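The counts of hormone genes with a peak were recomputed for the gene body alone, a flank of 10 kb, at least 50% of the peak inside the window, and without peaks at the start site of another gene, and at start sites for 500 bp, for 5 kb and for the outermost start alone. All counts, 8 of windows and 8 of start sites, stayed within 1.5 times under each of these settings. Keeping the top 50% of each list by score lowered H3K4me1 from 6 to 3 windows in crypts and in villi, from 4 to 1 start site in crypts and from 5 to 2 in villi, and it lowered H3K4me3 at start sites from 1 to 0 in both, since the peak of Sct ranked below that limit. H3K27me3 at start sites was left at 4 genes in crypts and 5 in villi. The shares of all genes at this setting are not given here, so the drops are not read as particular to the hormone genes. The differences in H3K4me1 between compartments at Chga, Chgb and Tac1 thus rest on peaks of the lower part of the lists. For single genes, the top 50% left 2 of 6 lists with a peak at Chga and 2 of 4 at Cck, and the gene body alone left 2 of 6 at Gip. No paired analysis was possible because each compartment and modification had 1 library. Depth is unknown, so an uncalled peak does not show that the mark is absent.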
